A study of Mus musculus with 2 samples.

Results

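Complement RNA was described in myeloid cells of malignant pleural effusions. The 9 genes were taken by symbol from the 27998 genes listed in both libraries, and all 9 were found: the C1q chain genes C1qa, C1qb and C1qc, the components C3, Cfb and Cfp, the receptors C3ar1 and C5ar1, and the C1r-like gene C1rl. Mice had received 150000 LLC cells (Lewis lung carcinoma, an established mouse line) by injection into the pleural cavity, in a volume of 100 µl, and the effusion was collected on day 10. Live cells positive for the leukocyte marker CD45 and the myeloid marker CD11b were sorted, and their RNA was counted with a droplet kit that reads the 3' end of each transcript. The labels give 1 group of 2 libraries and no tumour-free sample, so the comparisons lie between cell types of the effusion. The strain, age and number of animals are not given by the sources at hand, and whether the libraries come from separate animals is not stated.

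Complement is a set of plasma proteins and receptors that marks particles for uptake and calls in leukocytes. C1q is built from the products of C1qa, C1qb and C1qc, recognises antibody complexes and dying cells, and starts the classical pathway. It is made mainly by macrophages and dendritic cells rather than by the liver. C3 is the component on which all pathways converge, factor B (Cfb) and properdin (Cfp) form and stabilise the enzyme of the alternative pathway, and the small fragments C3a and C5a act through C3ar1 and C5ar1. C1rl encodes a serine protease related to C1r.

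The C1q chain genes lie side by side on the minus strand of chromosome 4 in mm10. C1qb spans chr4:136880129-136886187, C1qc chr4:136889804-136893065 and C1qa chr4:136895917-136898803. C3 (chr17:57203970-57228136), Cfb (chr17:34856374-34862518), Cfp (chrX:20925454-20931555), C3ar1 (chr6:122847138-122856161) and C5ar1 (chr7:16246743-16259540) also lie on the minus strand, and C1rl (chr6:124493113-124510643) on the plus strand. Of the 9 genes, 7 had an entry in the RefSeq promoter table; C1qa and Cfb had none. The 250 bases before the start are shown for C1qb, C1qc and C3ar1, because these genes were higher together in the Folr2 macrophages described next. The build is GRCm38.p6, and the windows are chr4:136886201-136886450, chr4:136892915-136893164 and chr6:122856158-122856407, all minus strand, written 5′ to 3′. Capitals mark matches to GAGGAA, the core of a site for the myeloid factor PU.1 (TTCCTC on the other strand), and to TGCTGA, the core of a site for Maf factors (TCAGCA on the other strand).
C1qb: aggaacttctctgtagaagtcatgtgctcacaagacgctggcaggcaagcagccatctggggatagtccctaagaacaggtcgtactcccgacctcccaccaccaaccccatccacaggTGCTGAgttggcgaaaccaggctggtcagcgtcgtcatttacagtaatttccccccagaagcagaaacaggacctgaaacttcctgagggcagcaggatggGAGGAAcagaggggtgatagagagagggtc
C1qc: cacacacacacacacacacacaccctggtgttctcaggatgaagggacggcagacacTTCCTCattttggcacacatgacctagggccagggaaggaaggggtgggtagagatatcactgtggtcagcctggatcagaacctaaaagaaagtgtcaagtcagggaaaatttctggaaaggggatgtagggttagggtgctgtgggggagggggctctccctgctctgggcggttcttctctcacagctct
C3ar1: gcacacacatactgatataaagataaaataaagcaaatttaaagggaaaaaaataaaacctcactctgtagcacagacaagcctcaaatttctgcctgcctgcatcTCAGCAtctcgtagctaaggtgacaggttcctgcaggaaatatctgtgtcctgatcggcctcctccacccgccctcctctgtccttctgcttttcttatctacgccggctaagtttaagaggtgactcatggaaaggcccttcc

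GAGGAA was found in C1qb, 30 bases before the start, in C1qc, 193 bases before it on the other strand, and at 2 places in Cfp just after its start. TGCTGA was found in C1qb 131 bases before the start, and in C3ar1, C1rl, C5ar1 and C3. Both strands were searched over the 300 bases from 250 before to 50 after the start, no marked matches overlapped, and GAGGAA was in 28.3% and TGCTGA in 19.5% of all 32851 promoters of that length. A match describes the letters and is not evidence of a bound factor.

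Library 1 held 1141 cell barcodes with 11543829 UMIs, molecules counted per gene and barcode, and library 2 held 2908 with 20322996. The median per barcode was 9894 and 1954.5 UMIs in that order, and 4 barcodes occurred in both libraries. After filtering, 1106 and 2782 cells were sorted into gates by scores over marker genes, none of them a complement gene; 955 and 2594 found a gate. The gates were Folr2 macrophages (332 and 73 cells), resident macrophages of the cavity (28 and 21), dendritic cells (140 and 34), neutrophils (75 and 1531) and monocytes. Markers of the Folr2 gate included Folr2, Cd163, Mrc1, Lyve1 and the platelet chemokine gene Pf4. Those of the resident gate included Prg4, Alox15 and Gata6. Monocytes were divided at a macrophage core score of 0.5 (Adgre1, Mertk, Fcgr1 and others) into macrophage-marked monocytes (289 and 692) and other monocytes (61 and 172). A gate is a range of a score and not a discrete type: 53 of 350 and 114 of 864 monocytes lay within 0.05 of that division. Although the label is myeloid cells, 28 and 20 cells met the B cell gate and 2 and 51 the T and NK cell gate. Library 2 also carried 2 antibody tags, BC2 and BC3, that the labels do not explain, and 1512 of its 1531 neutrophils but 29 of its 692 macrophage-marked monocytes lay on the BC3 side. Of the cells of library 1, 758 held Y-linked RNA alone and 0 held Xist; on the BC2 and BC3 sides of library 2, 921 and 334 cells held Xist alone, 47 and 57 Y-linked RNA alone and 56 and 3 both. Library and sex of the animals largely coincide, and with the tag they cannot be told apart. In summed counts, fewer expressing cells and less RNA per cell also cannot be told apart, and counts per cell are given where they bear on this.

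C1q RNA was highest in the macrophage gates. In Folr2 macrophages the 3 chains together reached 5308 CPM (counts per 1e+06 UMIs of the gate) in library 1 and 5801 in library 2. Resident macrophages followed with 3503 and 4399, macrophage-marked monocytes with 1376 and 2752, and other monocytes with 553 and 1146. These 4 gates kept that order in each library, and their ranges over the libraries did not overlap. Dendritic cells held 217 and 461, and neutrophils, a type not known to make C1q, 97.3 and 143. The B cell gate read 70.1 and 943, and 108 of the 113 UMIs behind the second value came from a single cell. Counting intervals for the Folr2 gate were 5238 to 5380 and 5648 to 5957 CPM (exact 95% Poisson), far narrower than the spread between libraries in the monocyte gates.

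C1qb gave the most UMIs of the 3 chains in the macrophage and monocyte gates. The kit counts transcript ends, so CPM is not scaled by gene length, and capture can differ between genes; differences between gates are read here rather than between chains. In Folr2 macrophages it reached 2785 ± 95.1 CPM (SD, n = 2 libraries), beside 1546 ± 202 for C1qa and 1224 ± 51.2 for C1qc. Resident macrophages had less C1qa (922 ± 227) and C1qb (1655 ± 269), with ranges that did not overlap those of the Folr2 gate. For C1qc the order was the other way round: resident macrophages held 1278 and 1471 CPM and Folr2 macrophages 1188 and 1261. The lowest resident value lay just above the highest Folr2 value. Counting intervals overlapped in library 1 (1152 to 1414 in resident and 1155 to 1222 in Folr2 macrophages). In library 2 they did not (1359 to 1589 and 1190 to 1334).

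**Figure D1:**
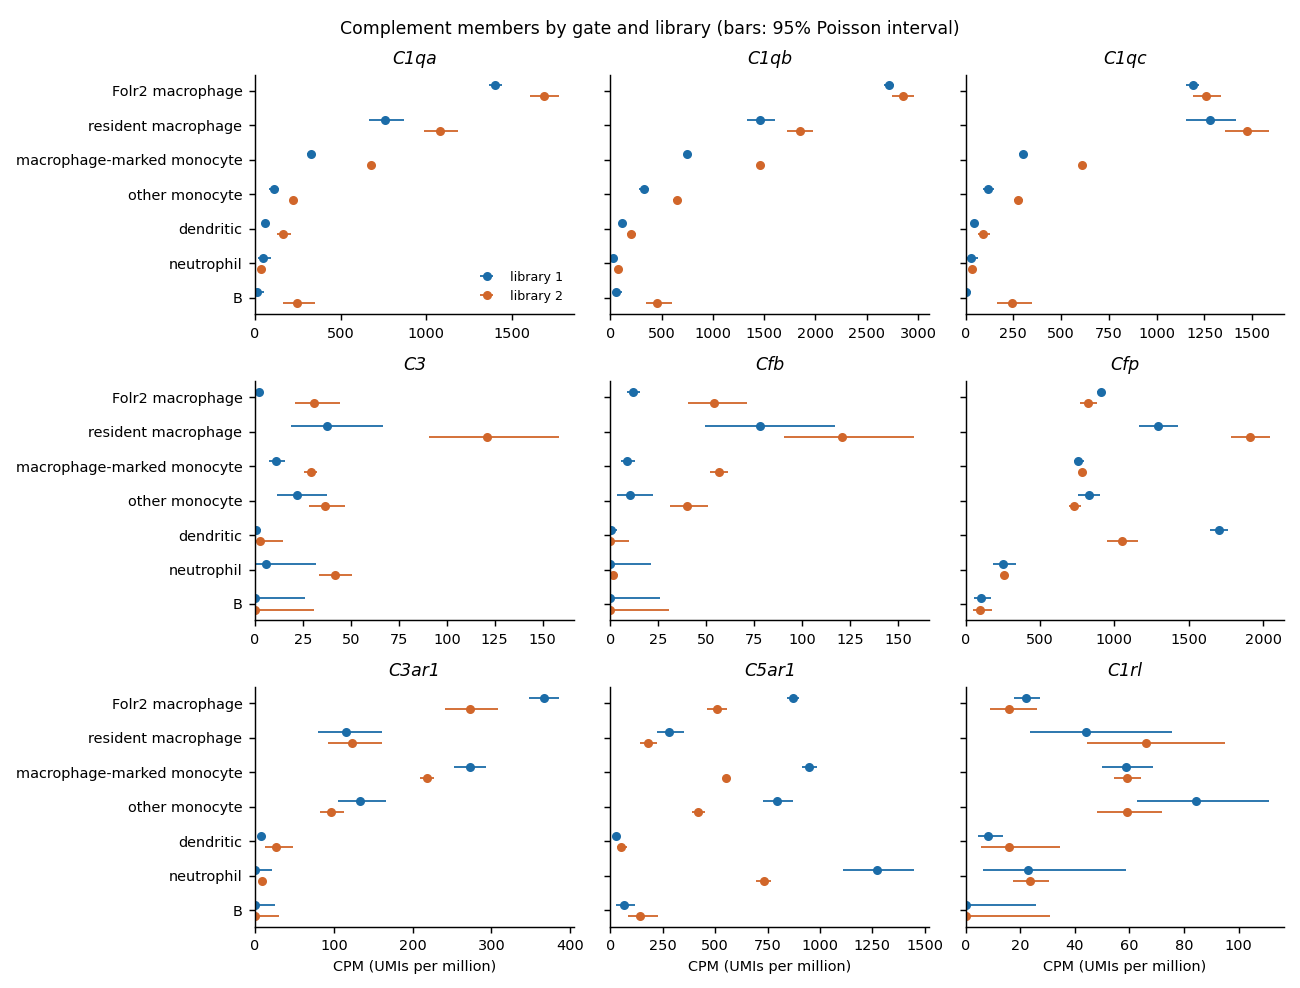
Level of each complement gene (CPM, UMIs per 1e+06 UMIs, linear axes that start at 0 and differ between panels) in 7 gates; points are single libraries and bars exact 95% Poisson intervals. C1qa and C1qb are highest in Folr2 macrophages, Cfb and C3 in resident macrophages, Cfp in resident macrophages and dendritic cells, whose ranges overlap, and C5ar1 in neutrophils, whose range overlaps that of macrophage-marked monocytes.

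The make-up of C1q RNA differed in resident macrophages. C1qc gave 36.5% of their C1q UMIs in library 1 (376 of 1031, exact binomial interval 33.5% to 39.5%) and 33.4% in library 2 (644 of 1926, 31.3% to 35.6%). In Folr2 macrophages the share was 22.4% and 21.7%, in macrophage-marked monocytes 21.7% and 22.2%, and in other monocytes 21.6% and 24.1%. Neither library's resident interval reached any of these shares. The same held cell by cell: among cells with at least 10 C1q UMIs, the median share of C1qc was 34.8% and 35.4% in resident macrophages (20 cells in each library) and 21.7% and 21.6% in Folr2 macrophages (218 and 57 cells). The intervals cover counting error only, and with 2 libraries no test of the shares was run.

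A second shift in make-up ran along the monocyte gates. C1qa made up 26.4% and 29.1% of C1q UMIs in Folr2 macrophages, 23.8% and 24.7% in macrophage-marked monocytes and 19.5% in both libraries' other monocytes. C1qb moved the opposite way, from 51.2% and 49.2% through 54.5% and 53.1% to 58.8% and 56.4%. The ratio of C1qb to C1qa UMIs was thus 1.94 and 1.69 in Folr2 macrophages and 3.02 and 2.89 in other monocytes. Intervals of the 2 monocyte gates overlapped in library 1 for both chains and in library 2 for neither. For C1qa in library 1 they were 15.4% to 24.2% in other and 22.4% to 25.2% in macrophage-marked monocytes. Other monocytes of library 1 held 64 C1qa UMIs, 36 of them in a single cell, and no share per cell was read for these 2 chains. Neutrophils of library 2 showed 24.0% C1qa, 52.7% C1qb and 23.3% C1qc over 317 UMIs. The exact binomial intervals were 19.4% to 29.1%, 47.0% to 58.3% and 18.8% to 28.4%. Shares of the macrophage-marked monocytes (24.7%, 53.1% and 22.2%), which held 57.1% of that library's C1q UMIs, lay within them. So did those of its other monocytes, its T and NK gated cells and its cells of no gate, so the make-up singles out no gate. The source of this RNA was not tested. Library 1's 17 neutrophil UMIs were too few to compare.

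**Figure D2:**
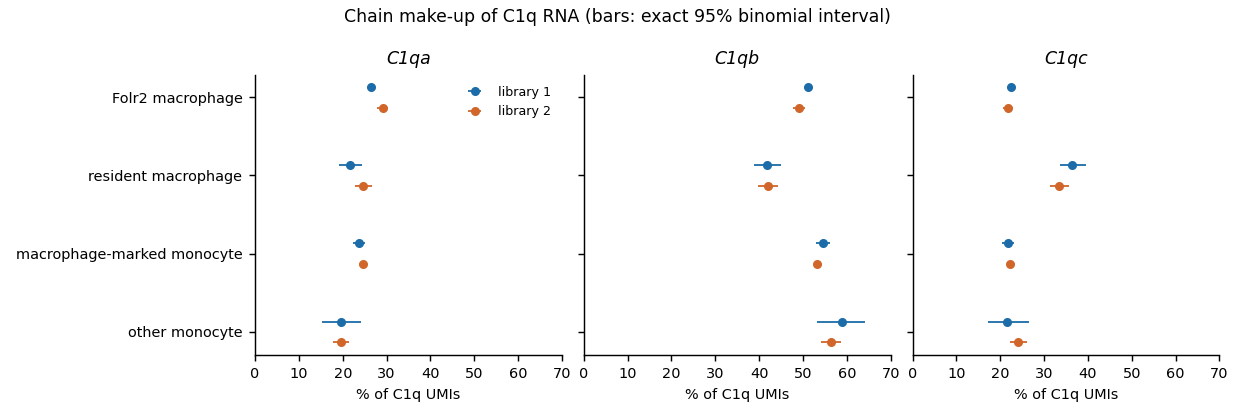
Share of each chain among all C1q UMIs (percent, x axes from 0 to 70) in 4 gates; points are libraries and bars exact 95% binomial intervals. The C1qc share of resident macrophages (36.5% and 33.4%) stands above the 21.6% to 24.1% of the other 3 gates, and the C1qb share is highest in other monocytes.

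In single Folr2 macrophages C1q counts were mostly either high or near 0. At least 10 C1q UMIs were counted in 65.7% of Folr2 macrophages of library 1 and 78.1% of library 2, and these cells held 99.3% and 99.6% of the gate's C1q UMIs. Between 3 and 9 UMIs were seen in only 5.42% and 4.11%. The remaining 96 of 332 and 13 of 73 cells held 0 to 2, although those 96 cells had a median of 10742.5 UMIs in all, against 12433 for the high cells. The 13 low cells of library 2 were shallower, with a median of 6089 against 14672. Resident macrophages had 0 cells with 0 to 2 C1q UMIs in either library: 71.4% and 95.2% held 10 or more, and the 10th percentile was 4.7 and 25 UMIs.

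The monocyte gates differed in how many of their cells were high. Of macrophage-marked monocytes, 22.8% (66 of 289) and 51.9% (359 of 692) held 10 or more C1q UMIs; of other monocytes, 13.1% (8 of 61) and 23.8% (41 of 172). Those few high cells carried 87.2% and 94.6% of the C1q UMIs of other monocytes. Among dendritic cells 3 of 140 and 1 of 34 were high and held 72.4% and 86.9% of the gate's C1q UMIs. No neutrophil reached 10, and the most in any of the 75 and 1531 neutrophils was 1 and 4.

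**Figure D3:**
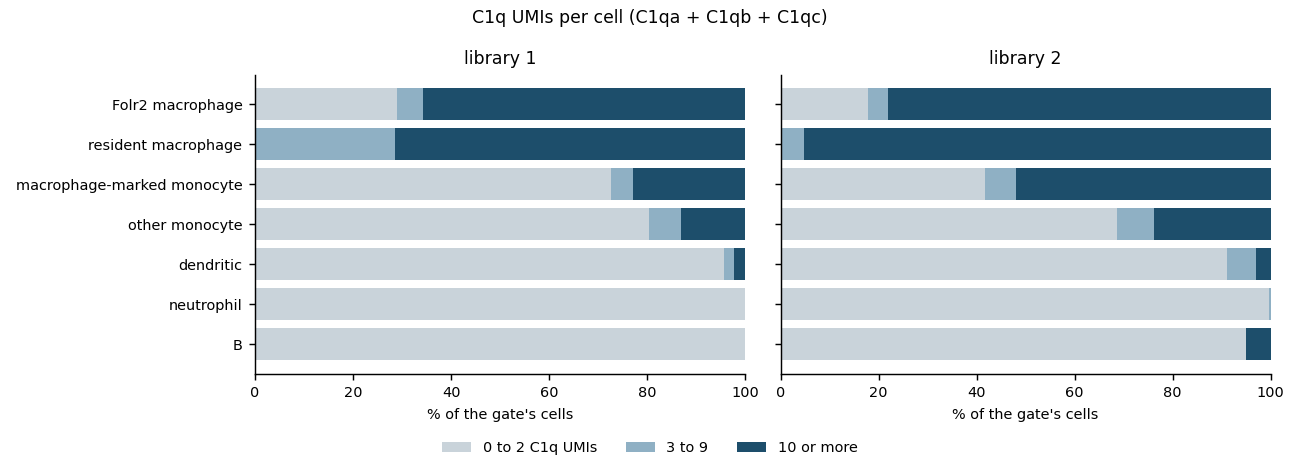
Share of cells (percent of the gate, x axis from 0 to 100) with 0 to 2, 3 to 9 or at least 10 UMIs of the 3 C1q chains, for 7 gates in each library. The middle class is thin in the Folr2 and monocyte gates of both libraries, and resident macrophages have no cell in the lowest class.

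At a fixed depth of 1000 UMIs per cell, shares of cells were higher in resident than in Folr2 macrophages and in neutrophils than in dendritic cells. This was the reverse of the CPM order for these pairs, but the intervals of the shares overlapped within each pair in both libraries. A C1q UMI was then found in 66.3% and 77.1% of Folr2 macrophages, 78.6% and 85.7% of resident macrophages, 26.0% and 53.1% of macrophage-marked monocytes, and 24.6% and 29.6% of other monocytes. Neutrophils gave 16.0% and 12.6%, and dendritic cells 9.29% and 3.03%. Exact binomial intervals were 59.0% to 91.7% and 63.7% to 97.0% in resident and 60.9% to 71.3% and 65.6% to 86.3% in Folr2 macrophages. They were 8.55% to 26.3% and 10.7% to 14.6% in neutrophils and 5.04% to 15.4% and 0.0767% to 15.8% in dendritic cells. Without thinning, the shares were 83.7% and 89.0% in Folr2 macrophages (median depth 11763 and 12539 UMIs) and 22.7% and 18.2% in neutrophils (2164 and 1303). Thinning left out cells only in library 2: 3 Folr2 macrophages, 16 macrophage-marked and 13 other monocytes, 1 dendritic cell and 361 neutrophils. The dendritic share at this depth did not stand above the neutrophil share, so it is not read as expression. Even so, dendritic CPM, held mostly by the few high cells, lay above that of neutrophils. The part of free RNA in either was not tested.

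The chains moved together from cell to cell. Over the 332 Folr2 macrophages of library 1, C1qb and C1qc correlated with a Pearson r of 0.934 and a Spearman rho of 0.921, and C1qa correlated with C1qb at 0.862 and with C1qc at 0.894 (Pearson). In the 692 macrophage-marked monocytes of library 2 the 3 pairs gave 0.786 to 0.891. The values describe cells that share a library, and no p is attached.

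C3ar1, C5ar1 and Cfp were not higher in the Folr2 macrophages with the most C1q. In library 1, Folr2 macrophages with 0 to 2 C1q UMIs held 418 CPM of C3ar1 (interval 379 to 459) and those with 10 or more held 343 (321 to 365). C5ar1 stood at 990 and 838 CPM and Cfp at 1036 and 875 in the same order, so all 3 were higher in the cells with little C1q, with intervals that did not overlap. In library 2 the 13 low and 57 high cells held 549 and 242 CPM of C3ar1, 725 and 477 of C5ar1 and 1021 and 807 of Cfp; the Cfp intervals overlapped. In macrophage-marked monocytes of library 2 the 288 low and 359 high cells held 219 and 216 CPM of C3ar1 and 779 and 786 of Cfp, with intervals that overlapped. C5ar1 was again higher in low cells there, at 685 against 495. In library 1 this did not repeat: the 210 low and 66 high cells held 964 and 926 CPM of C5ar1, 262 and 293 of C3ar1 and 761 and 756 of Cfp, with overlapping intervals. Cfp in other monocytes went the other way, with 1237 CPM in the 8 high and 746 in the 49 low cells of library 1, and 964 and 636 in the 41 high and 118 low cells of library 2. The classes share their libraries, and these values carry no test between samples.

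Most C1q RNA came from different gates in the 2 libraries. Folr2 macrophages supplied 69.5% of the C1q UMIs of library 1 and 11.3% of those of library 2, whereas macrophage-marked monocytes supplied 11.9% and 57.1%. Resident macrophages, with few cells, gave 3.33% and 4.00%. Platelet markers (Ppbp, Itga2b, Gp9 and Gp1bb) also moved with gate and library. Their summed level was 3377 and 385 CPM in Folr2 macrophages, 752 and 208 in macrophage-marked monocytes, 255 and 21.9 in other monocytes and 34.0 and 6.85 in resident macrophages. The score of the Folr2 gate itself includes the platelet chemokine gene Pf4. Whether platelet RNA placed cells in that gate, and its part in the results, were not tested. Within library 2, cells on the BC2 side held more C1q than cells on the BC3 side in the same gate: 2794 against 970 CPM in macrophage-marked monocytes (663 and 29 cells), 1238 against 195 in other monocytes (151 and 21) and 5601 against 2807 in resident macrophages (11 and 10). What the tags stand for is not given, and their part in these differences was not tested.

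C3 RNA was scarce, 698 UMIs in all barcodes. Resident macrophages held the most, 37.4 CPM in library 1 (11 UMIs) and 121 in library 2 (53 UMIs). Other monocytes followed with 21.9 and 36.7, so that the ranges of these 2 gates were almost in contact. Neutrophils (5.72 and 41.4), macrophage-marked monocytes (10.8 and 28.9) and Folr2 macrophages (1.98 and 30.8) overlapped one another. Dendritic cells held 1 UMI in each library, and B cells 0 in both, which allows up to 21.0 and 25.0 CPM at 3 counts.

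Cfb, which gives the catalytic part of the alternative pathway enzyme, was likewise highest in resident macrophages, at 78.2 and 121 CPM. At least 1 Cfb UMI was seen in 17 of 28 and 16 of 21 of these cells. Folr2 macrophages (11.6 and 54.3), macrophage-marked monocytes (8.60 and 56.7) and other monocytes (10.1 and 40.2) could not be ordered, since their ranges overlapped. Neutrophils had 0 and 3 UMIs in 75 and 1531 cells. Cfb overlaps the annotated gene Gm20547 on the same strand, which was listed with 0 UMIs.

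Cfp, encoding properdin, was the most widely expressed component. Resident macrophages (1291 and 1909 CPM) and dendritic cells (1703 and 1051) led with overlapping ranges. Folr2 macrophages (909 and 825), other monocytes (828 and 732) and macrophage-marked monocytes (759 and 784) formed a middle group whose neighbours overlapped. Neutrophils held 252 and 259 and B cells 105 and 100. The dendritic gate thus differed from the Folr2 gate in opposite ways for C1q and for properdin.

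The anaphylatoxin receptors had unlike patterns. C3ar1, the receptor for C3a, stood at 366 and 273 CPM in Folr2 macrophages, 272 and 218 in macrophage-marked monocytes, 116 and 123 in resident macrophages and 133 and 96.4 in other monocytes. The ranges of the first 2 gates were separated by a narrow gap, while those of the last 2 overlapped. Dendritic cells held 7.05 and 26.3, and neutrophils 0 and 9.003.

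C5ar1, the receptor for C5a, was highest in neutrophils, 1270 and 731 CPM. Macrophage-marked monocytes (950 and 553), Folr2 macrophages (869 and 507) and other monocytes (796 and 419) overlapped them and each other over the libraries, although neutrophils led within each library. Resident macrophages held 282 and 180, and dendritic cells 25.3 and 50.03. At 1000 UMIs per cell, C5ar1 was found in 74.7% and 48.1% of neutrophils and in 54.2% and 38.6% of Folr2 macrophages. The unthinned shares, 94.7% and 57.6% of neutrophils and 99.1% and 91.8% of Folr2 macrophages, had the opposite order, at median depths of 2164 and 1303 UMIs in neutrophils and 11763 and 12539 in Folr2 macrophages.

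C1rl was low and had its own order. Other monocytes held 84.3 and 59.1 CPM, macrophage-marked monocytes 58.7 and 59.1, and resident macrophages 44.2 and 66.2. Neutrophils (22.9 and 23.4, from 4 and 52 UMIs) and Folr2 macrophages (22.2 and 16.0, from 90 and 15) lay lower. The ranges of these 2 gates did not overlap, but their counting intervals did in each library. In library 1 the intervals were 6.24 to 58.6 CPM in neutrophils and 17.9 to 27.3 in Folr2 macrophages, so the 2 gates are not ordered. C1rl overlaps the antisense gene Gm44096, listed with 45 UMIs against 1355 for C1rl; whether counting used strand is not given, so reads in the shared stretch cannot be assigned.

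Gates were then compared with edgeR's quasi-likelihood test on UMIs summed per gate and library, with the library as a block and p-values adjusted over all 8100 genes tested (Benjamini-Hochberg, called under 0.05). All 9 genes passed the filter on low counts. The SE beside each log2 fold change comes from that fit, with n = 2 libraries. The block takes out the mean difference between libraries, so p-values measure how far differences between gates varied over these libraries. That spread was estimated over all 14 sums, with 6 residual degrees of freedom, and covers these libraries only.

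Folr2 macrophages were first compared with other monocytes. Both are gates set by marker scores, and the origin of their cells was not tested. All 3 C1q chains were higher in the macrophages: C1qa by 3.29 ± 0.37 on the log2 scale (SE, edgeR adjusted p = 1.09e-05), C1qc by 2.73 ± 0.42 and C1qb by 2.61 ± 0.37. C3ar1 was higher by 1.47 ± 0.29 (edgeR adjusted p = 0.0041) and C1rl lower, by a fitted log2 difference of -1.80 ± 0.28 (adjusted p = 0.00048, edgeR). C3 (-1.28), Cfb (0.28), Cfp (0.12) and C5ar1 (0.16) did not pass. So 5 of the 9 genes were called, 4 higher and 1 lower, where 4.95% of all genes tested were called (2.62% higher, 2.33% lower). The median over the 9 was 0.28 and over all genes -0.00. Single-library ratios had the same sign in both libraries for each of the 5: 3.69 and 2.92 for C1qa, 1.45 and 1.503 for C3ar1, -1.93 and -1.85 for C1rl. Without the library block only C1rl passed (adjusted p = 0.0794 for C1qa to 0.258 for C3ar1). When cells took the gate of their nearest neighbours, the C1q calls were lost (adjusted p = 0.0824 for C1qa, log2 1.81), and C3ar1 lost its call with DESeq2 (adjusted p = 0.13).

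The 2 macrophage types differed in both receptors and in C3, Cfb, C1rl and Cfp. Relative to resident macrophages, Folr2 macrophages were higher in both receptors, C5ar1 by 1.57 ± 0.33 (edgeR adjusted p = 0.0024) and C3ar1 by 1.41 ± 0.32 (edgeR adjusted p = 0.0052). They were lower in C3, Cfb, C1rl and Cfp. The log2 fold change was -2.77 ± 0.47 for C3 (edgeR adjusted p = 0.00043) and -1.73 ± 0.37 for Cfb (edgeR adjusted p = 0.0032). It was -1.49 ± 0.35 for C1rl and -0.89 ± 0.28 for Cfp (edgeR adjusted p = 0.0478). C1qa (0.80 ± 0.34, adjusted p = 0.155), C1qb (0.81 ± 0.35, adjusted p = 0.175) and C1qc (-0.13 ± 0.39, adjusted p = 0.907) were not called, which does not show that they are equal. Here 2 genes were higher and 4 lower, where 10.9% of all genes were called (3.9% higher, 6.99% lower). The resident gate rests on 28 and 21 cells. Single-library ratios had the same sign but unlike sizes: -4.22 and -1.96 for C3 in libraries 1 and 2, -2.77 and -1.16 for Cfb, -1.04 and -2.03 for C1rl and -0.51 and -1.21 for Cfp. Without the block only C1rl passed, and C1rl lost its call with nearest-neighbour gates (adjusted p = 0.058). Cfp passed in 6 of 12 alternatives (adjusted p = 0.0127 to 0.176), and C3ar1 missed with DESeq2 (adjusted p = 0.150). C1qa and C1qb each passed in 2 of 12 alternatives and C1qc in 0. For C1qa these were no filter on low counts (edgeR adjusted p = 0.0342) and mitochondrial UMIs limited to 5% (edgeR adjusted p = 0.0465). For C1qb they were no filter (edgeR adjusted p = 0.038) and thinning (edgeR adjusted p = 0.0425).

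**Figure D4:**
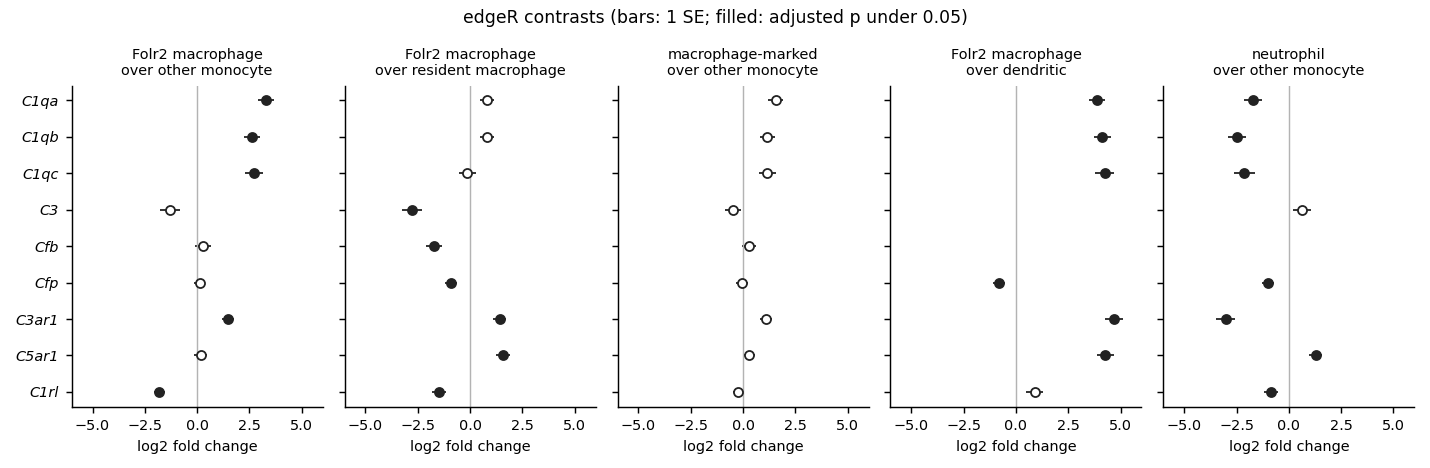
Log2 fold changes of the 9 genes in 5 comparisons of gates, from edgeR's fit on summed UMIs (points; bars are 1 SE, n = 2 libraries; filled where the adjusted p is under 0.05). Pairs with 3 or fewer UMIs in a gate are not drawn; C1q and C3ar1 are higher in Folr2 macrophages than in monocytes, and C5ar1 is the single gene of the 9 called higher in neutrophils than in monocytes.

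Within monocytes the macrophage-marked cells held more C1q and C3ar1, but no gene was called. The log2 fold change over other monocytes was 1.56 ± 0.35 for C1qa (edgeR adjusted p = 0.0775), 1.16 ± 0.36 for C1qb, 1.17 ± 0.40 for C1qc and 1.09 ± 0.29 for C3ar1 (edgeR adjusted p = 0.185). These 4 had unadjusted p under 0.05, and both libraries gave ratios above 1 for each. edgeR called 0 of the 9 genes and DESeq2 0 of the 6 to which it gave an adjusted p (C3, Cfb and C1rl had none), and edgeR called 0.198% of all genes (0.148% higher, 0.0494% lower). C1qa did pass with mitochondrial UMIs limited to 5% (adjusted p = 0.0092) and after thinning (adjusted p = 0.016), and all 4 passed with no filter on low counts. With nearest-neighbour gates C3ar1 passed (adjusted p = 0.0447) and the C1qa difference shrank to 0.29.

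The same contrast was read in finer steps of the macrophage core score. From under 0.4 to 0.8 and above, C3ar1 went from 117 to 400 CPM in library 1 and from 61.9 to 294 in library 2, higher at each of the 6 steps in both. Summed C1q went from 587 to 2216 CPM and from 805 to 3495, with a dip at the second step in library 1 and at the fifth in library 2. C5ar1 ended higher than it began (720 to 1055 and 324 to 712), and C1rl ended lower (97.9 to 34.6 and 59.5 to 40.0). Each step holds 28 to 241 cells.

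**Figure D5:**
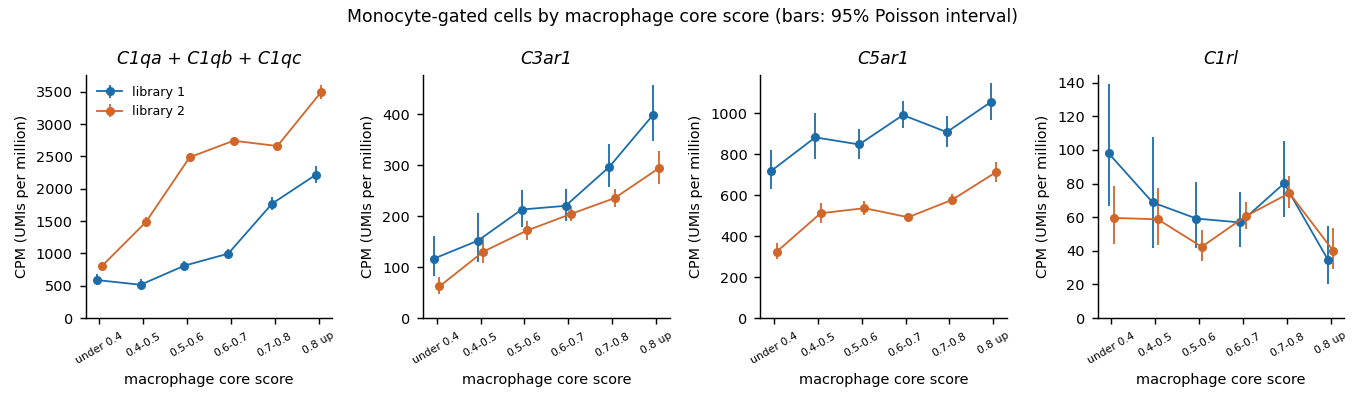
Level of C1q (3 chains summed), C3ar1, C5ar1 and C1rl (CPM, linear axes from 0) in monocytes placed by their macrophage core score in 6 steps; points are libraries and bars exact 95% Poisson intervals. C3ar1 is higher at each step in both libraries, and C1q reaches 2216 and 3495 CPM at the top step.

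Dendritic cells held little RNA of the set apart from Cfp. Folr2 macrophages were higher in C3ar1 by 4.69 ± 0.41 on the log2 scale (edgeR adjusted p = 1.03e-07), in C5ar1 by 4.27 ± 0.39, in C1qc by 4.24 ± 0.47, in C1qb by 4.12 ± 0.40 and in C1qa by 3.89 ± 0.39. Cfb was called too, with 98 against 1 UMIs, a ratio of 40.9 (counting interval 7.17 to 1632). C3 had 37 against 2 UMIs, a ratio of 7.72 (1.99 to 66.1), and was not called (edgeR adjusted p = 0.0676). Cfp was lower in the macrophages (log2 fold change -0.80 ± 0.28, edgeR adjusted p = 0.0469), and this call held in 7 of 13 alternatives (adjusted p = 0.0017 to 0.156). In all, 6 genes were higher and 1 lower, where 22.2% of all genes were called (9.79% higher, 12.4% lower). C1rl (0.90) was not called.

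In neutrophils C5ar1 was the single gene of the 9 called higher than in other monocytes. Macrophage-marked monocytes were not part of this comparison. Against other monocytes C5ar1 was higher by 1.28 ± 0.31 (edgeR adjusted p = 0.0018), while 7 genes were lower, with log2 fold changes of -3.02 ± 0.46 for C3ar1, -2.50 ± 0.43 for C1qb, -2.12 ± 0.52 for C1qc, -1.72 ± 0.45 for C1qa, -0.9996 ± 0.30 for Cfp and -0.85 ± 0.31 for C1rl. Cfb, with 3 against 74 UMIs, was lower by a ratio of 25.9 (counting interval 8.52 to 128). C3 (0.61 ± 0.44) was not called. Without the library block C5ar1 lost its call (log2 1.22, edgeR adjusted p = 0.0536), and C1qb, C3ar1 and Cfp were the 3 genes still called. In all, 8 of the 9 genes were called, where 54.9% of all genes were called (26.9% higher, 28.0% lower). Ratios of plain CPM for C5ar1, without edgeR's scaling, were 0.68 and 0.80 on the log2 scale in libraries 1 and 2, below the fitted 1.28. The median of all genes in this comparison was -0.09 with edgeR's TMM scaling and -0.24 with size factors of the DESeq2 type, which gave 1.29 for C5ar1. Whether free RNA contributes to the C1q counts of neutrophils was not tested.

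Between libraries, C3 and Cfb varied most within the Folr2 and macrophage-marked gates. In Folr2 macrophages library 2 held 15.6 times the C3 of library 1 (counting interval 6.96 to 39.5; 29 and 8 UMIs) and 4.67 times the Cfb (3.08 to 7.09). In macrophage-marked monocytes the ratio was 6.59 (4.35 to 10.48) for Cfb and 2.67 (1.82 to 4.06) for C3. C1qa (2.08) and C1qc (2.04) were also more than 2-fold higher in library 2 in this gate, and C1qb just less (1.95). In Folr2 macrophages, by contrast, the C1q chains differed by 1.05 to 1.20 times. At least 2-fold higher in library 2 were 2 of the 9 genes in Folr2 macrophages, where 8.53% of all genes with 20 or more UMIs were (3.96% at least 2-fold lower). The count was 4 of 9 in macrophage-marked monocytes (background 11.3% higher, 2.41% lower), 1 in resident macrophages (8.96%, 4.08%), 3 in other monocytes (10.9%, 2.76%) and 3 in neutrophils (18.6%, 5.85%). None of the 9 was at least 2-fold lower in library 2 in these 5 gates.

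C5ar1 went the other way in every macrophage, monocyte and neutrophil gate. The ratio of library 2 to library 1 was 0.584 in Folr2 macrophages, 0.640 in resident macrophages, 0.582 in macrophage-marked monocytes, 0.526 in other monocytes and 0.575 in neutrophils. C3ar1 was lower in library 2 in Folr2 macrophages (0.746) and both monocyte gates (0.801 and 0.723) but not in resident macrophages (1.07). There is 1 library on each side, so these ratios have no test, and library, animals, sex and tag cannot be told apart.

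Of 42 other complement genes listed for the comparison, 41 were in the files; 14 of them had 0 UMIs and 28 had under 50. Among those at 0 were the terminal pathway genes C6, C7, C8a and C8b and the lectin pathway genes Mbl1, Mbl2, Masp1 and Masp2, chosen as examples after their values were seen, and the C5 gene Hc had 1 UMI. Of 13 tested, 3 were higher and 2 lower in Folr2 macrophages than in other monocytes, 0 higher and 5 lower than in resident macrophages, and 6 higher and 1 lower than in dendritic cells, where 4.95%, 10.9% and 22.2% of all genes tested were called. Itgam, the CD11b gene used in the sort, is listed under 2 identifiers and was left out of these counts.

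Resident macrophages held further complement components. C4b, the classical pathway component C4, stood at 160 and 498 CPM there against 3.46 and 9.57 in Folr2 macrophages (log2 fold change of Folr2 over resident -5.55 ± 0.30, edgeR adjusted p = 5.26e-10). Fcna, a ficolin that recognises sugars, stood at 217 and 194 against 10.4 and 8.51 (-4.41 ± 0.28), and C1ra, the C1r protease, at 61.2 and 107 against 5.93 and 17.0 (-3.00 ± 0.39). The integrin chain Itgb2 was also higher in resident macrophages (1305 and 834 against 423 and 404 CPM; -1.35 ± 0.25). For none of these 4 genes did the ranges of the 2 gates overlap.

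Elsewhere single genes of the list stood out. C5ar2, the second C5a receptor, was higher in neutrophils than in other monocytes (51.5 and 78.8 against 25.3 and 23.1 CPM; 2.33 ± 0.33, edgeR adjusted p = 8.92e-06), and so were Cr1l (1.40 ± 0.33) and C4b (1.89 ± 0.69) in the fit. For these 2 genes the levels differed in that direction in library 2 alone. Cr1l stood at 57.2 and 142 CPM in neutrophils against 70.8 and 73.3 in other monocytes, and C4b at 0 and 6.30 against 0 and 2.96. C1qbp, Calr, Cd93 and Lrp1 were lower in neutrophils. C4b was the single gene of the list that differed between macrophage-marked and other monocytes (4.49 and 19.8 against 0 and 2.96 CPM; 2.76 ± 0.52, edgeR adjusted p = 0.0309). Itgax, the CD11c chain, was lower in Folr2 macrophages than in dendritic cells (0.989 and 6.38 against 96.4 and 68.5 CPM; -5.47 ± 0.46). Lrp1, a C1q-binding uptake receptor, was higher in Folr2 macrophages than in other monocytes (249 and 224 against 143 and 97.6 CPM). Its log2 fold change was 0.98 ± 0.24 (edgeR adjusted p = 0.0193). In the same comparison C1qbp (0.81 ± 0.22) and Fcna (2.31 ± 0.61) were higher, while C5ar2 (-1.497 ± 0.41) and Itgax (-2.49 ± 0.66) were lower.

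Genes with the most similar pattern were read as Pearson correlations of log2(CPM + 1) over the 14 sums of 7 gates and 2 libraries, among 6765 genes with at least 10 CPM on average and without the gate markers. For C1qa the 5 closest were C1qc (0.952), C1qb (0.952), Npc1 (0.929), Itsn1 (0.925) and Wwp1 (0.915). C3ar1 was closest to Dse (0.976), Cd93 (0.976), Nus1 (0.974), Morf4l2 (0.972) and Cox7a2 (0.971). For Cfp close genes were B4galt6 (0.963), Hfe (0.958), Stx3 (0.946) and Ctsa (0.945). C5ar1 was closest to Eif4ebp1 (0.920), Clec4d (0.917), Eif5 (0.916), Ninj1 (0.906) and Cd44 (0.893), C3 to Lcp2 (0.891), and Cfb to Itm2b (0.935) and Man2a1 (0.932). Apart from the other 2 C1q chains, no complement gene of the 9 was among any of these lists. The sums share libraries and cells of like depth, and the values are descriptions with no p.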

How the data were processed

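Single-cell 3' end RNA counts of 2 libraries were used. The authors deposited UMI counts per gene and cell barcode, unscaled and limited to called cells; per the submitters' processing notes, Cell Ranger 3.0.1 and the build mm10 were used. The annotation release and whether counting used strand are not given by the sources at hand. Cells needed 300 genes and at most 10% mitochondrial UMIs. Doublets were taken as the cells with the highest share of simulated pairs among 30 neighbours, 0.8% per 1000 cells. That left 25 and 61 cells out by filter and 10 and 65 as doublets. A gate needed a mean log marker score of at least 0.3 of its 99th percentile, a margin of 0.1 and 2 markers; 170 and 213 cells lay near the margin. UMIs were summed per gate and library (14 sums) and tested with edgeR 4.0.16 in R 4.3.3 (TMM, filterByExpr, library block, 6 residual degrees of freedom), tested on simulated data. DESeq2 1.42.0, limma 3.58.1, Python 3.11.15, numpy 2.4.6, scipy 1.17.1 and scikit-learn 1.9.0 were also used. The block is the library, from which all gates of one number are drawn. The T and NK gate stayed out of the fit. Intervals are exact at 95% and cover counting error only. All 9 genes are named; other complement genes are named with values where they passed in a comparison and had 50 UMIs, and the 5 closest genes by correlation. Alternatives covered scaling, filter, tool, block, gates, doublets, mitochondrial share, depth, tag side and each library. The members and lists were chosen with earlier results of these data known. A few genes of the lists, counted in the totals, are not reported here by name.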

Additional observations from a re-analysis of the deposited data

Results flagged for a closer look

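C1q UMIs also lay in cells outside the gates used above. Cells of no gate held 12.96% of the C1q UMIs of library 1 (151 cells) and 19.2% of those of library 2 (188 cells), and 35.1% and 51.6% of them had 10 or more C1q UMIs. In library 2 the T and NK gate read 1726 CPM of C1q, above the 143 CPM of neutrophils. Of its 51 cells, 16 held 1454 of the 1472 C1q UMIs, with a median of 28054 UMIs in all against 8146 in the cells with 0 to 2. The gate's monocyte markers summed to 5249 CPM beside 5395 for its own markers, and at 1000 UMIs per cell 27.5% of its cells had a C1q UMI. The BC2 side held 2164 CPM and the BC3 side 39.8. What these cells are was not tested.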

How the results depend on the processing

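The number of complement genes called moved in 4 comparisons, and the cause was not tested. With no replicate block, which drops the pairing of gates by library, fewer genes were called. The number went from 5 to 1 in Folr2 macrophages against other monocytes and from 6 to 1 against resident macrophages. In neutrophils against other monocytes it went from 8 to 3. Gates by nearest neighbours gave 2 in Folr2 macrophages against other monocytes. Thinning to 1000 UMIs left 6 genes tested in the resident and neutrophil comparisons and gave 3 and 5 calls. The 3 calls of the resident comparison were all higher in Folr2 macrophages (C1qb, C3ar1 and C5ar1). C3, Cfb and C1rl were not tested there, and Cfp did not pass. Between macrophage-marked and other monocytes 0 calls became 4 with no filter on low counts and 1 each with nearest neighbours, a mitochondrial share up to 5% and thinning. C1qb in Folr2 macrophages (2785 CPM) was 3007 with a stricter gate, 2599 with a looser gate and 2662 with nearest neighbours; with the latter, C1qc in resident macrophages went from 1374 to 1582 CPM and its share from 35.0% to 32.6%.

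Signs reversed only for differences that were not called. Cfp in Folr2 macrophages against other monocytes was -0.15 with nearest neighbours. Between macrophage-marked and other monocytes, C3 was 0.27 with nearest neighbours, and Cfp was 0.034 with no filter, 0.12 with a stricter gate and 0.26 after thinning. A monocyte split at 0.6, chosen after seeing the data, gave 0.021 for Cfp and 0.040 for C1rl. C3 in neutrophils against other monocytes was -0.090 with DESeq2. Without the BC3 side the 5 calls of Folr2 macrophages against other monocytes held, and the resident and neutrophil comparisons had under 20 cells. Leaving out a library allows no test. C1qa in Folr2 macrophages against other monocytes was then 2.92 and 3.69. Between macrophage-marked and other monocytes, Cfp also changed sign without library 1 (0.099) and Cfb without library 2 (-0.32). So did C3 in neutrophils against other monocytes without library 2 (-1.41), and C1rl in Folr2 macrophages against dendritic cells without library 1 (-0.054). The resident gate holds 28 and 21 cells, and neutrophils are shallow, at a median of 2164 and 1303 UMIs.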
